A study of Drosophila melanogaster with 10 samples.

Results

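The expression of Nkd lacking its R1S region in the wing disk was compared with the expression of GFP, over all genes of the raw count table. The 4 libraries of this comparison, 2 of NkdΔR1S disks and 2 of GFP disks, are part of a series of 10 libraries in 5 groups. The other 6 libraries come from disks expressing full-length Nkd, NkdΔ30aa or NkdΔD6, the last 2 of which lack a potential nuclear localization signal, and they serve here to set the NkdΔR1S values in context. All transgenes were driven by MS1096‐Gal4, a driver active mainly in the wing pouch and stronger in its dorsal part, so that each library also contains disk cells with little or no transgene. Each RNA sample was pooled from about 70 wing disks of larvae late in the third instar, kept at 25 °C. No source used here gives the sex of the larvae. The UAS‐Nkd lines carry Nkd fused to GFP at its C terminus and were outcrossed into a common background, whereas the controls express GFP. The methods do not give the background of the GFP line. In the contrast with GFP, the Nkd form and any difference between the fly lines therefore cannot be told apart. The methods speak of biological duplicates without saying whether separate crosses were made, so a p-value measures the spread between these samples, which may be technical in part.

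Naked cuticle is an EF-hand protein that is itself a target of Wingless (Wg) and acts as a feedback inhibitor of the pathway. In Wg signaling, the ligand binds Frizzled receptors and the co-receptor Arrow, Dishevelled (Dsh) is recruited, the complex that destroys Armadillo is held back, and Armadillo then acts with Pangolin on target genes. Nkd binds Dsh through the R1S region, so NkdΔR1S is the form from which the contact with Dsh has been removed. In the wing pouch, Wg from the margin is known for patterning the margin and for growth.

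The NkdΔR1S libraries held 18695697 and 18961766 counts and the GFP libraries 19909939 and 20581154. The 10 wing disk defining genes, among them vg, nub and ap, summed to 748 and 990 CPM (counts scaled to library size) in GFP disks and to 877 and 1041 CPM in NkdΔR1S disks, and all of them had counts. Levels below are CPM after TMM normalization, which compares a gene between libraries but not genes of different length with each other. Differences are log2 fold changes of NkdΔR1S minus GFP from edgeR's quasi-likelihood test, fitted on all 10 libraries. A gene was called at a fold change over 1.5 and a Benjamini-Hochberg adjusted p under 0.05, among 9264 genes that passed the filter on low counts out of 14420 with a count.

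Few genes passed this test in NkdΔR1S disks. edgeR called 5 genes higher (0.054% of those tested), which were CG13032, nkd, lilli, NaPi-III and baz. It called 11 genes lower (0.119%), which were CG7900, asRNA:CR45600, lncRNA:dntRL, CG4098, Ir76a, FBgn0010549, CG32373, CG43897, lncRNA:CR44042, EMRE and CG17734. At an unadjusted p under 0.05, with no fold threshold, 984 genes (10.6%) lay higher and 863 (9.32%) lower. DESeq2 on the 4 libraries alone called 73 of 8533 genes higher (0.856%) and 77 lower (0.902%), and the 16 genes of the edgeR fit were all among them, while edgeR on the same 4 libraries called 0 genes in either direction, with 1010 at an unadjusted p under 0.05. The calls rest on all 4 libraries: edgeR called 0 higher and 2 lower without GFP replicate 1, 0 higher and 3 lower without GFP replicate 2, 2 higher and 5 lower without NkdΔR1S replicate 1, and 5 higher and 5 lower without NkdΔR1S replicate 2.

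**Figure D1:**
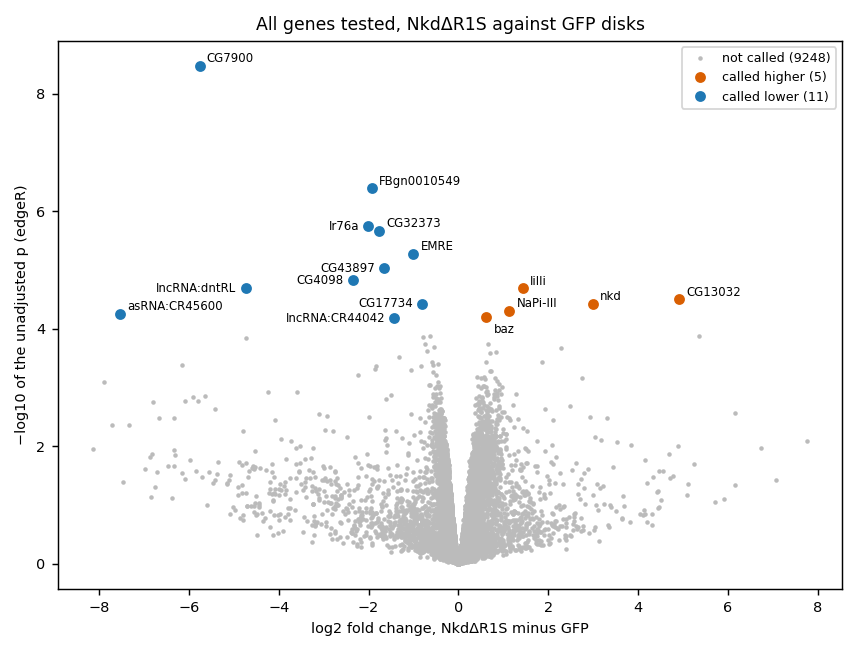
Each point is 1 of the 9264 genes tested, with its log2 fold change in NkdΔR1S against GFP disks on the x axis and −log10 of its unadjusted edgeR p on the y axis. The 5 genes called higher are orange and the 11 called lower are blue, and CG7900, with a log2 fold change of -5.76, lies far above all other genes.

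The nkd gene (FBgn0002945, BDGP6 3L:19003741-19045449, minus strand) is the check of the labels, and its counts add the endogenous transcript and the transgene. It stood at 37.3 and 70.1 CPM in the GFP libraries and at 345 and 512 CPM in the NkdΔR1S libraries. The groups did not overlap, and the log2 fold change was 3.00 ± 0.34 (SE), a 7.98-fold rise (edgeR adjusted p = 0.0292). This call was lost without GFP replicate 1 (log2 fold change 2.61, adjusted p = 0.115), GFP replicate 2 (3.62, 0.0504), NkdΔR1S replicate 1 (3.33, 0.0629) and NkdΔR1S replicate 2 (2.71, 0.158), with the direction kept each time. The nkd level in NkdΔR1S disks was also below that of every library of the other Nkd forms, which held 1141 and 1190 CPM for Nkd, 1176 and 1498 CPM for NkdΔ30aa and 1349 and 993 CPM for NkdΔD6. Tested directly, the difference passed against NkdΔ30aa (log2 -1.64, edgeR adjusted p = 0.0115) and not against Nkd (-1.44, adjusted p = 0.115) or NkdΔD6 (-1.45, adjusted p = 0.0723). The fold changes below are therefore set beside a lower nkd transcript level than in the other Nkd groups, and its part in any difference between the Nkd forms was not tested. Of 9 tested genes within 50 kb of nkd, 0 had an unadjusted p under 0.05, with log2 fold changes from -0.42 to 0.08.

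Among the other genes called higher, CG13032 (FBgn0036652, 3L:16673964-16676264) was nearly silent in controls, with 0.166 and 0.103 CPM, from 3 and 2 counts. It reached 5.25 and 3.22 CPM in NkdΔR1S disks, from 93 and 63 counts. The ratio of GFP to NkdΔR1S counts was 0.0319, with a 95% counting interval from 0.0102 to 0.0761 (edgeR adjusted p = 0.0292). Full-length Nkd disks had 4.56 and 3.80 CPM of CG13032, whereas NkdΔ30aa disks had 0.0480 and 0.0465 CPM and NkdΔD6 disks 0.154 and 0.0509 CPM. In the direct contrasts NkdΔR1S disks exceeded both NkdΔ30aa (log2 6.31, edgeR adjusted p = 0.00472) and NkdΔD6 (5.28, adjusted p = 0.0144). Low CG13032 is thus shared by the GFP disks and both nuclear-signal deletions, and the values of NkdΔR1S and Nkd disks lay in 1 range.

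The gene lilli (FBgn0041111, 2L:2885929-2954406) encodes an AF4/FMR2 family protein of the super elongation complex. It rose from 14.3 and 18.9 CPM to 42.2 and 47.3 CPM, a 2.70-fold change (edgeR adjusted p = 0.0211). NaPi-III (FBgn0260795, 3L:11123348-11134663), named as a sodium-phosphate cotransporter, rose from 31.3 and 27.97 CPM to 66.3 and 64.1 CPM, a 2.198-fold change (edgeR adjusted p = 0.0357). For lilli and NaPi-III the lowest NkdΔR1S library exceeded the highest GFP library, as it did for 20.9% of all genes tested. Both genes were called on these same libraries, so this is no further support. The last gene called higher was baz (FBgn0000163, X:17160006-17200728), the fly Par-3 of the apical polarity complex, which rose from 44.1 and 45.3 CPM to 66.9 and 70.6 CPM. Its fold of 1.54 (log2 0.62 ± 0.08, edgeR adjusted p = 0.0383) lay just above the threshold. It is a long gene with 10881 bases of exon, and with offsets that level the libraries on exon length its log2 fold change was 0.11 (adjusted p = 0.777), so the call ended there. With these offsets lilli, with 10614 bases of exon, went from log2 1.43 to 0.94 and stayed called (edgeR adjusted p = 0.0158). For lilli, NaPi-III and baz all libraries of the other Nkd forms also exceeded both GFP libraries. In Nkd disks lilli was at 24.6 and 31.4 CPM, NaPi-III at 110 and 135 CPM and baz at 81.4 and 82.7 CPM.

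The gene with the clearest change was CG7900 (FBgn0037548, 3R:8094124-8105083). It had 17.8 and 18.0 CPM in GFP disks and 0.395 and 0.256 CPM in NkdΔR1S disks. The fall was 54.3-fold (log2 -5.76 ± 0.23, edgeR adjusted p = 3.07e-05), and it was called in 12 of 13 alternative settings. The other Nkd forms did not share this level, since CG7900 stood at 14.0 and 13.5 CPM in Nkd, 7.34 and 7.53 CPM in NkdΔ30aa and 13.3 and 12.9 CPM in NkdΔD6 disks. NkdΔR1S disks were lower than each of them in the direct contrast, by log2 -5.38 against Nkd (edgeR adjusted p = 4.96e-05), -4.50 against NkdΔ30aa (adjusted p = 0.000183) and -5.31 against NkdΔD6 (adjusted p = 5.42e-05). The 6 tested genes within 50 kb of CG7900 had log2 fold changes from -0.05 to 1.81, and 0 of them had an unadjusted p under 0.05.

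Another 3 genes were lower in NkdΔR1S disks than in both GFP and full-length Nkd disks. Ir76a (FBgn0260874, 3L:19799278-19803427), a member of the ionotropic receptor family known from olfactory neurons, went from 23.3 and 20.8 CPM in GFP to 4.91 and 6.03 CPM, a 4.02-fold fall (edgeR adjusted p = 0.00501). CG32373 (FBgn0052373, 3L:7650548-7759123) went from 92.1 and 78.5 CPM to 27.7 and 22.4 CPM, a 3.41-fold fall (edgeR adjusted p = 0.00501). CG43897 (FBgn0264489, 3L:9813847-9834345) went from 19.9 and 16.8 CPM to 6.10 and 5.57 CPM, a 3.14-fold fall (edgeR adjusted p = 0.0144). Against Nkd disks the log2 differences of Ir76a, CG32373 and CG43897 were -1.21 (edgeR adjusted p = 0.0419), -1.40 (0.0169) and -1.46 (0.0209). NkdΔ30aa disks held low levels as well, with 21.5 and 23.6 CPM of CG32373 and 6.001 and 4.74 CPM of CG43897, and there the differences from NkdΔR1S had adjusted p of 0.485 and 0.628. NkdΔD6 disks had 44.3 and 55.4 CPM of CG32373 and 16.5 and 14.6 CPM of CG43897. Ir76a was below both GFP libraries in all Nkd forms. It was at 12.5 and 12.8 CPM in Nkd, 8.02 and 7.58 CPM in NkdΔ30aa and 9.22 and 7.84 CPM in NkdΔD6 disks. Exons of Ir76a overlap the antisense gene CG14102 over 14.1% of their length, and since the strand setting of the counting is unknown, reads of that stretch cannot be told apart.

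A second set of lower genes stood at low levels in full-length Nkd disks too. The ABC transporter gene FBgn0010549 (2R:9390165-9395281), given here by its ID, went from 33.5 and 31.2 CPM in GFP to 8.53 and 8.54 CPM in NkdΔR1S, a 3.79-fold fall (edgeR adjusted p = 0.00189), with 7.34 and 8.97 CPM in Nkd disks. CG4098 (FBgn0036648, 3L:16608138-16609347) went from 38.2 and 32.4 CPM to 8.98 and 4.91 CPM, a 5.08-fold fall (edgeR adjusted p = 0.0198), with 7.69 and 6.43 CPM in Nkd disks. EMRE (FBgn0062440, 2R:18147297-18147997), which encodes a small subunit of the mitochondrial calcium uniporter, went from 72.6 and 68.1 CPM to 36.4 and 33.9 CPM, a fold of 2.001 (edgeR adjusted p = 0.00989), with 43.6 and 42.9 CPM in Nkd disks. In these genes the GFP libraries stood apart from all Nkd forms that were sequenced. A difference of the GFP line cannot be told apart here from a change shared by the Nkd forms. CG17734 (FBgn0037890, 3R:11242208-11243999) was the smallest of the called falls at 1.76-fold, from 68.7 and 68.5 CPM to 42.2 and 36.0 CPM (edgeR adjusted p = 0.0292). In Nkd disks CG17734 was at 36.0 and 37.4 CPM. For FBgn0010549, CG4098, EMRE and CG17734 the direct contrast of NkdΔR1S with Nkd gave adjusted p between 0.203 and 0.982, which does not show that the levels are alike.

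The last 3 called genes are noncoding. lncRNA:dntRL (FBgn0267585, 2R:4621118-4622481) went from 18.1 and 15.7 CPM to 0.847 and 0.409 CPM, a 26.7-fold fall (edgeR adjusted p = 0.0211). It was low in all other Nkd forms too, with 0.992 and 1.07 CPM in Nkd disks. NkdΔ30aa disks had 0 and 0.0465 CPM of it and NkdΔD6 disks 0.103 and 0.153 CPM. asRNA:CR45600 (FBgn0267160, 3R:15136985-15140121) went from 6.55 and 5.72 CPM to 0 and 0.0511 CPM, which is 1 count over both NkdΔR1S libraries. The ratio of GFP to NkdΔR1S counts was 228, with a 95% counting interval from 40.5 to 9043 (edgeR adjusted p = 0.0366). asRNA:CR45600 was at 0.0992 and 0 CPM in Nkd, 4.42 and 3.67 CPM in NkdΔ30aa and 0.721 and 0.407 CPM in NkdΔD6 disks. Its exons lie antisense to other genes over 63.0% of their length, and one of these genes, CG6912, had 6.44 and 5.77 CPM in GFP and 0.452 and 0.256 CPM in NkdΔR1S disks without being called (edgeR adjusted p = 0.151). Because the strand setting is unknown, the 2 genes cannot be told apart. lncRNA:CR44042 (FBgn0264834, 2R:1348167-1349167) went from 13.3 and 13.4 CPM to 4.86 and 5.11 CPM, a 2.68-fold fall (edgeR adjusted p = 0.0384), and its neighbour l(2)41Ab went from 10.5 and 11.7 CPM to 4.46 and 4.45 CPM (adjusted p = 0.102). All other Nkd forms held lncRNA:CR44042 below the GFP level, at 4.81 and 5.36 CPM in Nkd, 6.72 and 6.14 CPM in NkdΔ30aa and 4.99 and 4.99 CPM in NkdΔD6 disks. lncRNA:CR44042 was called in 3 of 13 alternative settings, fewer than any other of the 16 genes.

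**Figure D2:**
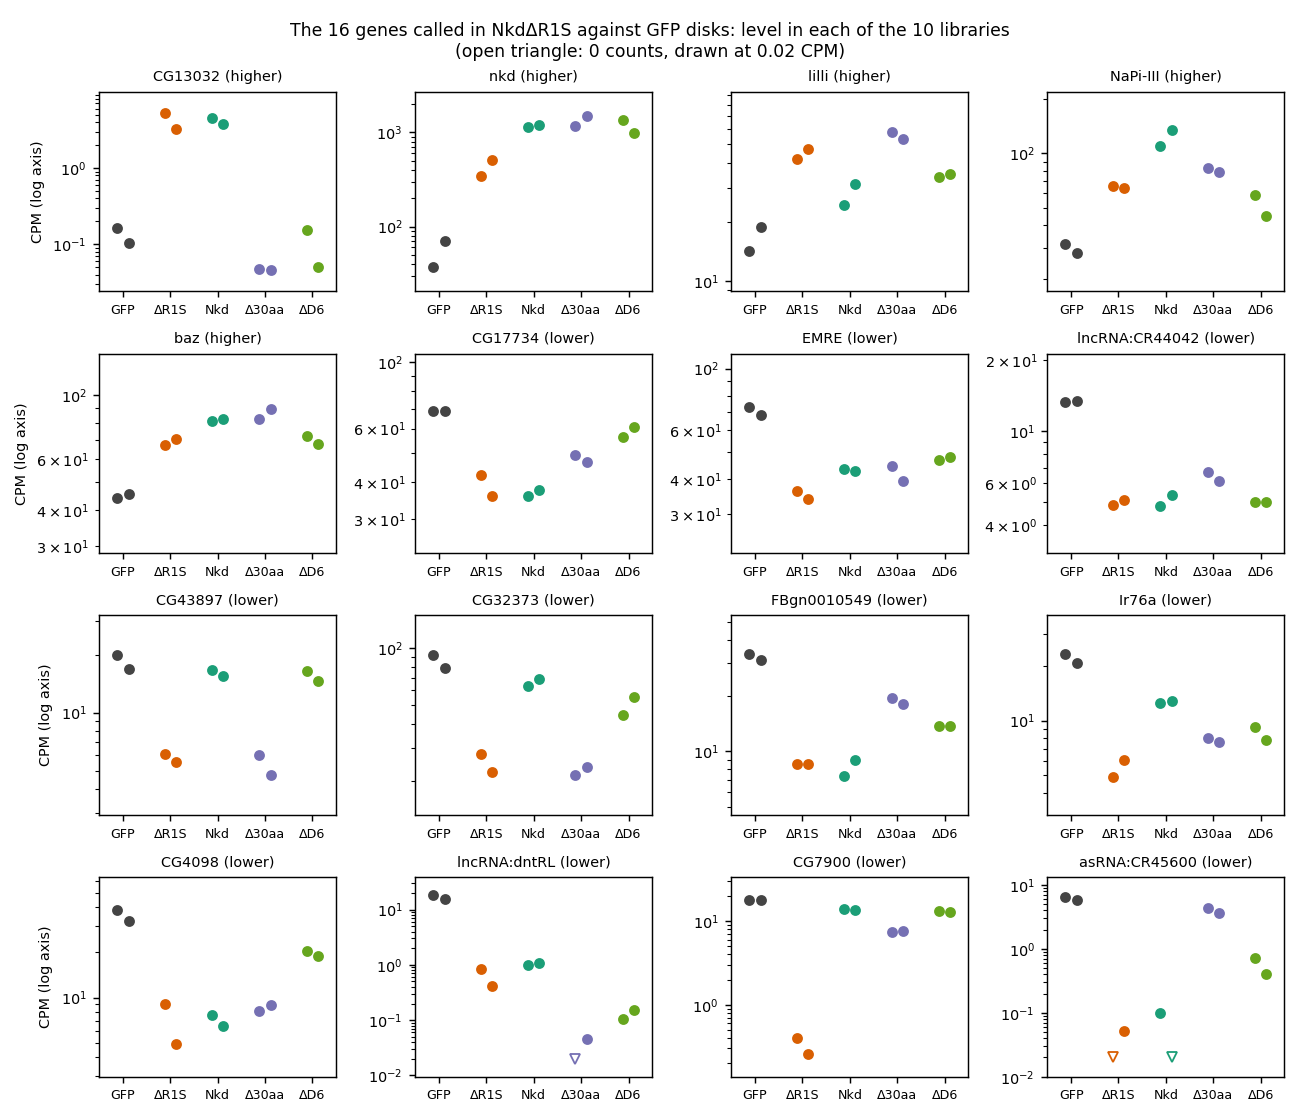
Each panel shows 1 of the 16 called genes, with CPM on a log axis and 1 point per library for the 5 groups. In every panel the 2 GFP and the 2 NkdΔR1S points do not overlap, and CG7900 is near 14 CPM in Nkd disks but below 0.4 CPM in NkdΔR1S disks. The genes were called on these same libraries, so their separation is no further support. Over all genes tested, libraries did not overlap for 20.9% with NkdΔR1S higher and 26.5% with NkdΔR1S lower.

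Several genes stopped just short of the threshold and were picked after their values were seen. The receptor tyrosine kinase gene tor rose from 0.388 and 0.155 CPM to 10.9 and 11.8 CPM with an edgeR adjusted p of 0.0661, and it was at 0.694 and 0.829 CPM in Nkd disks. It passed with length offsets (adjusted p = 0.0427) and in DESeq2. Sod1, the cytosolic superoxide dismutase gene, was at 1107 and 979 CPM in GFP and 668 and 548 CPM in NkdΔR1S disks (edgeR adjusted p = 0.0661). Sod1 too passed with length offsets (edgeR adjusted p = 0.0158) and in DESeq2. CG32055 was at 1.94 and 3.50 CPM in GFP and 12.03 and 14.8 CPM in NkdΔR1S disks (edgeR adjusted p = 0.0826). The bZIP gene Xrp1, known for its part in cell competition, was at 97.7 and 117 CPM in GFP and 186 and 197 CPM in NkdΔR1S disks (edgeR adjusted p = 0.0878). DESeq2 on the 4 libraries also called CG32055 and Xrp1. In all libraries of the other Nkd forms Sod1 and CG32055 were below, and Xrp1 above, both GFP libraries.

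The called genes were spread over the genome. Of the genes tested, 17.6% lay on 2L, 20.7% on 2R, 19.9% on 3L, 24.3% on 3R, 0.885% on 4 and 16.5% on X. Of those called higher, 1 was on 2L, 3 on 3L and 1 on X, and of those called lower, 4 were on 2R, 4 on 3L and 3 on 3R. The nearest pair of called genes was CG4098 and CG13032 on 3L, which lie 64.6 kb apart and moved in opposite directions.

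In the Wg pathway, nkd was the only called gene, in 40 tested genes of a list of ligands, receptors, transducers and regulators. Since nkd counts include the transgene, this call checks the labels and cannot be read as a response of the pathway. The unadjusted counts and medians of the list include nkd. The list had 7 members higher and 0 lower at an unadjusted p under 0.05, against 10.6% and 9.32% of all genes. Its median log2 fold change was 0.18, beside -0.03 over all genes tested, and 0.05 with length offsets. The ligand gene wg was at 71.9 and 91.1 CPM in GFP and 72.2 and 98.3 CPM in NkdΔR1S disks, a log2 difference of 0.06 with a 95% interval from -0.30 to 0.42. The gene of the Nkd partner, dsh, was at 77.4 and 84.0 CPM in GFP and 83.1 and 84.5 CPM in NkdΔR1S disks, with an interval from -0.14 to 0.25. arm, the fly β-catenin gene, had an interval from -0.22 to 0.14 and pan, the TCF gene, one from -0.16 to 0.47. These intervals of wg, dsh, arm and pan all lie within the 1.5-fold threshold. They describe whole-disk levels, take their spread from the fit of all 10 libraries and use no length offsets. A larger change limited to the cells with transgene could not be assessed. The largest differences in the list besides nkd that had a low unadjusted p were in sina, a ubiquitin ligase gene (40.7 and 46.9 against 62.0 and 68.9 CPM, edgeR adjusted p = 0.133), and in the co-receptor gene arr (79.5 and 92.6 against 110 and 143 CPM, adjusted p = 0.151). With length offsets the log2 fold change of arr went from 0.56 to 0.21.

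The genes known as Wg targets in the wing disk numbered 18, of which nkd alone was called, and its counts include the transgene. Excluding nkd, the members named here, which were chosen for their known roles with their values seen, had values of both signs. The receptor gene fz3 was at 77.2 and 64.5 CPM in GFP and 65.9 and 53.9 CPM in NkdΔR1S disks (edgeR adjusted p = 0.363). The selector gene vg had a log2 interval from -0.41 to 0.17 and the distal gene Dll one from -0.21 to 0.45. The proneural genes of the margin, ac and sc, had log2 fold changes of -0.28 and -0.30, the homeobox gene ct of the margin had 1.05 and Notum, a secreted inhibitor of Wg, 0.43, and none of them passed (edgeR adjusted p of 0.402, 0.197, 0.175 and 0.303).

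The study lists genes of the Wnt, Notch, Hippo and MAPK pathways, which its authors picked from full-length Nkd against GFP in libraries of this series, so they are no independent sample and they share the GFP libraries with this comparison. Of 11 Wnt genes nkd was called, of 11 Hippo genes baz was called, and of 6 Notch and 11 MAPK genes 0 were called. The nkd counts include the transgene, and nkd is part of the Wnt counts and medians given here. At an unadjusted p under 0.05, 6 of the Wnt, 3 of the Notch, 9 of the Hippo and 7 of the MAPK genes were higher and 0 were lower, and DESeq2 called nkd in the Wnt set and baz and ft in the Hippo set. Over all genes tested, 10.6% were higher and 9.32% lower at that unadjusted p. The receptor gene N went from 118 and 157 CPM to 196 and 253 CPM (log2 0.71, edgeR adjusted p = 0.163). The EGF receptor ligand gene vn went from 13.6 and 19.8 CPM to 24.6 and 31.5 CPM (log2 0.74, adjusted p = 0.151), and Egfr itself from 88.9 and 114 CPM to 138 and 173 CPM (log2 0.62, adjusted p = 0.186). The apical determinant gene crb went from 75.4 and 89.3 CPM to 114.5 and 142 CPM (adjusted p = 0.175). In each of N, vn, Egfr and crb the libraries of the 2 groups did not overlap. Libraries did not overlap for 20.9% of all genes with NkdΔR1S higher and for 26.5% with NkdΔR1S lower. These genes have long exons: the median was 4483 bases for the Wnt, 4867 for the Notch, 8144 for the Hippo and 5239 for the MAPK genes, beside 2020 over all genes tested. The median log2 fold changes of the 4 sets were 0.51, 0.37, 0.59 and 0.48, and with length offsets they were 0.21, 0.18, 0.12 and 0.21. The row with the symbol CBP, counted in the Wnt and Notch sets and the only negative member of each (log2 -0.15), may not be the gene the study meant, and without it the medians were 0.54 for 10 Wnt and 0.49 for 5 Notch genes.

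In the wider signaling lists medians ran from -0.26 to 0.31. For the unadjusted counts given here, the shares over all genes tested were 10.6% higher and 9.32% lower. No gene of the Hippo core and targets passed in edgeR (24 tested, 8 higher and 0 lower unadjusted, median log2 0.23), and DESeq2 called 1, the upstream regulator ex, which went from 81.3 and 116 CPM to 173 and 190 CPM (edgeR adjusted p = 0.222). Its partner gene kibra went from 6.99 and 9.12 CPM to 14.3 and 18.2 CPM (adjusted p = 0.151), and the coactivator gene yki had a log2 difference of 0.06 with an interval from -0.23 to 0.35. Of 12 genes of the Fat and Dachsous branch, edgeR called 0 and DESeq2 called the cadherin genes ft and ds (unadjusted 6 higher and 0 lower). Of 21 Notch pathway genes 7 were higher and 0 lower unadjusted, whereas of 15 Notch target genes 1 was higher and 4 were lower, with a median of -0.26, and 0 were called by either tool in both lists. Of 30 genes of the EGF receptor and Ras cascade 9 were higher and 2 lower unadjusted, and 0 were called by edgeR or DESeq2. In the Dpp pathway (25 tested, 9 higher and 2 lower unadjusted) edgeR called 0 genes and DESeq2 called the target gene salr, and dpp itself had a log2 interval from -0.11 to 0.36. For the Hedgehog pathway (19 tested, 8 and 1) and the JNK cascade (21 tested, 5 and 1) both tools called 0. With length offsets the medians of these lists lay between -0.16 and 0.13, and that of the JNK cascade turned from 0.14 to -0.01.

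Among 79 genes of wing and vein morphogenesis edgeR called baz and no other, with 27 higher and 2 lower unadjusted, and DESeq2 called 6 higher. The median was 0.24, and 0.03 with length offsets. At an unadjusted p under 0.05, 10.6% of all genes tested lay higher and 9.32% lower. Of the 1853 genes with 3939 or more bases of exon, 690 lay higher and 21 lower. Planar cell polarity genes held 0 edgeR calls in 18, with 6 higher and 1 lower unadjusted, and DESeq2 called stan, ft and ds. The cadherin gene stan, also called flamingo, was at 27.6 and 31.4 CPM in GFP and 46.4 and 64.3 CPM in NkdΔR1S disks (edgeR adjusted p = 0.151). The planar polarity median turned from 0.21 to -0.04 with length offsets, and that of the 21 apical and basolateral polarity genes from 0.27 to -0.05. Of 32 trithorax and remodeler genes 18 were higher and 2 lower unadjusted, edgeR called 0, and DESeq2 called E(bx), dom and trx. E(bx), the large subunit gene of the NURF remodeler, went from 67.7 and 85.1 CPM to 119 and 167 CPM (edgeR adjusted p = 0.151). Of 23 Polycomb group and Hox genes 9 were higher and 0 lower unadjusted, with DESeq2 calling Jarid2 and edgeR calling 0, and the Hox gene Ubx went from 6.49 and 3.92 CPM to 14.7 and 10.8 CPM (adjusted p = 0.149). Axon guidance genes, which also act in epithelia, had 15 of 40 higher and 1 lower unadjusted, 0 calls in edgeR and 1 in DESeq2, the ligand gene sli (72.1 and 86.2 against 113 and 148 CPM).

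Lists of short, highly expressed genes leaned the other way without a call. Over all genes tested, 10.6% were higher and 9.32% lower at an unadjusted p under 0.05. Of the 1853 genes with at most 1081 bases of exon, 40 were higher and 231 lower. Of 83 cytoplasmic ribosomal protein genes 0 were higher and 15 lower at an unadjusted p under 0.05, with a median of -0.21 that was -0.07 with length offsets and -0.01 without NkdΔR1S replicate 2. Of 71 mitochondrial ribosomal protein genes 0 were higher and 19 lower, and of 67 nuclear genes of oxidative phosphorylation 0 were higher and 14 lower, with medians of -0.19 and -0.17 that were -0.05 and -0.03 with length offsets. Neither edgeR nor DESeq2 called a member of these 3 lists. The member with the lowest p was mRpL46, which was at 71.6 and 61.9 CPM in GFP and 46.0 and 42.6 CPM in NkdΔR1S disks (edgeR adjusted p = 0.112). Cell cycle genes were near the middle, with 5 of 58 higher and 7 lower unadjusted, 0 called by edgeR and 1 by DESeq2, and a median of -0.03 that was 0.03 under RLE normalization. Heat shock and chaperone genes had 0 of 24 higher and 6 lower unadjusted, and edgeR called 0. The inducible Hsp70Bb was at 132 and 102 CPM in GFP and 20.8 and 36.8 CPM in NkdΔR1S disks (edgeR adjusted p = 0.200), and DESeq2 called it and Hsp70Ba lower.

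**Figure D3:**
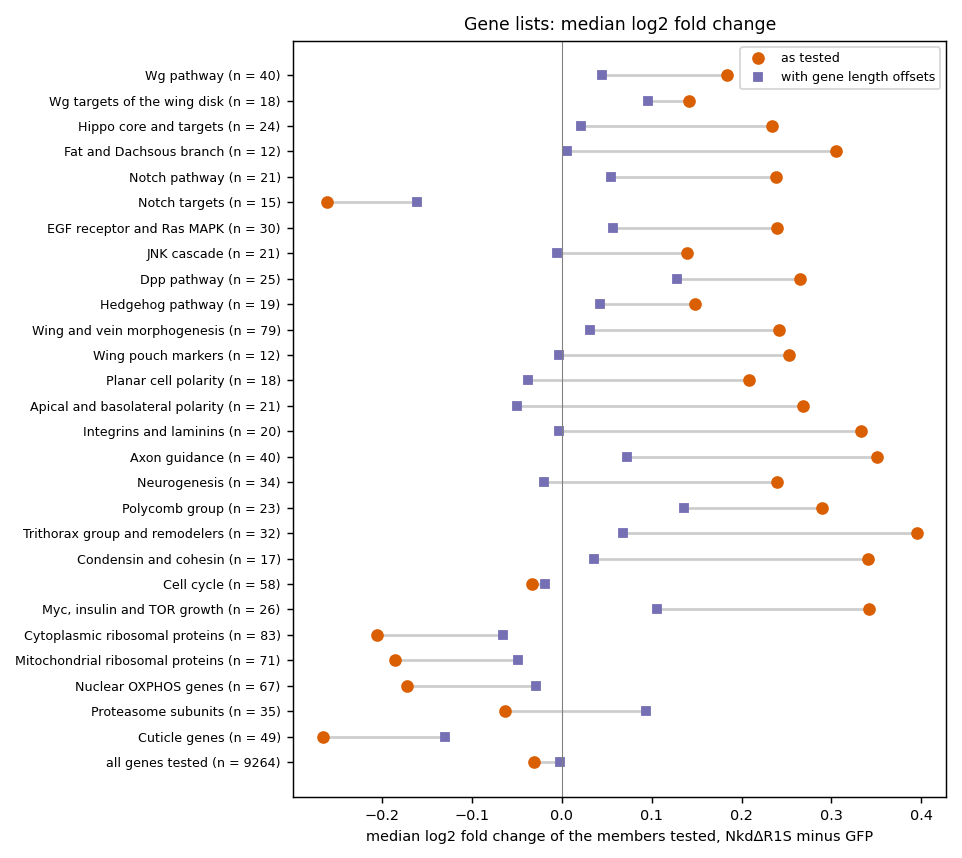
The plot gives the median log2 fold change in NkdΔR1S against GFP disks for each gene list, as tested (orange) and with gene length offsets (purple squares), with the number of members tested. Most medians move toward 0 with the offsets, and trithorax genes go from 0.40 to 0.07.

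Long and short genes were not counted in the same proportion in the NkdΔR1S and GFP libraries. For each library, its log2 level relative to the average library was ranked against exon length, and this rank correlation over genes was -0.616 and -0.479 in GFP disks and -0.426 and -0.0380 in NkdΔR1S disks, so that both GFP libraries and NkdΔR1S replicate 1 leaned to short genes and NkdΔR1S replicate 2 was near level. The log2 fold change itself had a rank correlation of 0.425 with exon length over 9264 genes, and 0.0487 once offsets were used, and the genes are not independent replicates. The same correlation for replicate 1 minus replicate 2 was -0.385 in GFP and -0.406 in NkdΔR1S disks, about as large within the groups as between them. In the shortest of 5 equal length classes, up to 1081 bases of exon, the median log2 fold change was -0.17, and in the longest, from 3939 bases, it was 0.34. Of the 984 genes higher at an unadjusted p under 0.05, 690 lay in the longest class. Exons summed to a median of 5062 bases in the 5 genes called higher and 1879 in the 11 called lower. With length offsets in the fit edgeR called 6 genes higher and 14 lower, and 14 of the 16 genes stayed called, the exceptions being baz and lncRNA:CR44042.

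**Figure D4:**
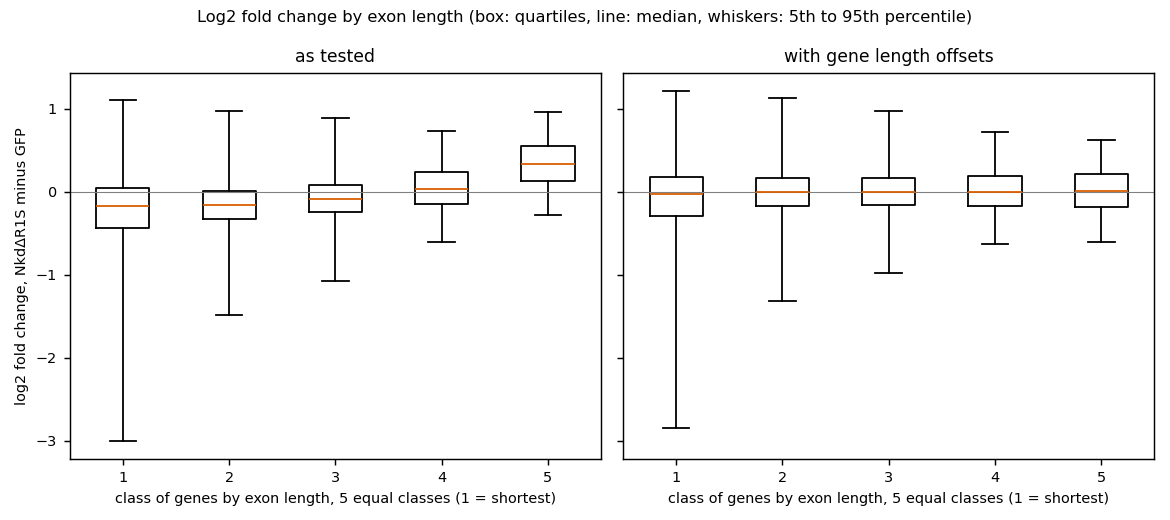
Genes are split into 5 equal classes by exon length (1 the shortest), and boxes give the quartiles of the log2 fold change in NkdΔR1S against GFP disks, with whiskers from the 5th to the 95th percentile. As tested the medians climb from -0.17 to 0.34, and with offsets (right) they lie near 0.

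Markers of other larval tissues were unevenly present in the samples. Summed over 14 salivary gland markers, the level was 5274 and 705 CPM in GFP and 263 and 130 CPM in NkdΔR1S disks, and 1 of the 14 was at 0 in all 4 libraries. For 16 gut markers it was 300 and 837 CPM in GFP and 616 and 36.7 CPM in NkdΔR1S disks, with 0 markers at 0 in all 4 libraries. Hemocyte markers, 12 genes, summed to 207 and 233 CPM in GFP and 171 and 129 CPM in NkdΔR1S disks, and 14 larval muscle markers to 289 and 244 against 204 and 141 CPM. The male-specific roX RNAs summed to 495 and 441 CPM in GFP and 283 and 348 CPM in NkdΔR1S disks. The tracheal sum of 6 genes was 1512 and 1267 CPM in GFP and 1108 and 1104 CPM in NkdΔR1S disks, and that of 8 notum myoblast markers 128 and 148 against 161 and 182 CPM. Nerve and glia markers, 10 genes, summed to 25.1 and 24.4 CPM in GFP and 30.6 and 32.9 CPM in NkdΔR1S disks. The 11 fat body markers summed to 4631 and 1354 against 2279 and 2542 CPM. In each of these 2 lists 1 marker was at 0 in all 4 libraries. Salivary gland, hemocyte, muscle, tracheal and roX sums were thus lower in both NkdΔR1S libraries than in both GFP libraries. The myoblast sum and the nerve and glia sum were higher in both, and the gut and fat body sums overlapped. Single markers did not all follow their sum. Of 6 tracheal markers, 2 were higher in both NkdΔR1S libraries than in both GFP libraries and 3 were lower. The 2 were trh (12.1 and 17.4 CPM in GFP, 20.3 and 22.7 CPM in NkdΔR1S disks) and btl (5.77 and 7.06 against 7.57 and 9.36 CPM). Of 14 muscle markers, sls alone was higher in this way and 9 were lower. In bulk samples fewer cells of a type and less RNA per cell cannot be told apart. edgeR called 0 of these markers. At an unadjusted p under 0.05, 1 of 14 muscle, 1 of 6 tracheal and 1 of 8 myoblast markers tested were higher, beside 10.6% of all genes. At that p 1 of 14 gut, 1 of 9 fat body, 2 of 6 tracheal and 2 of 12 hemocyte markers tested were lower, beside 9.32% of all genes. DESeq2 called 2 salivary gland, 2 gut and 2 hemocyte markers lower, beside 0.902% of the genes it tested. With the salivary gland, fat body, gut, hemocyte, muscle, tracheal, and nerve and glia markers removed before normalization, the same 16 genes were called. The myoblast markers and the roX RNAs stayed in that fit.

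**Figure D5:**
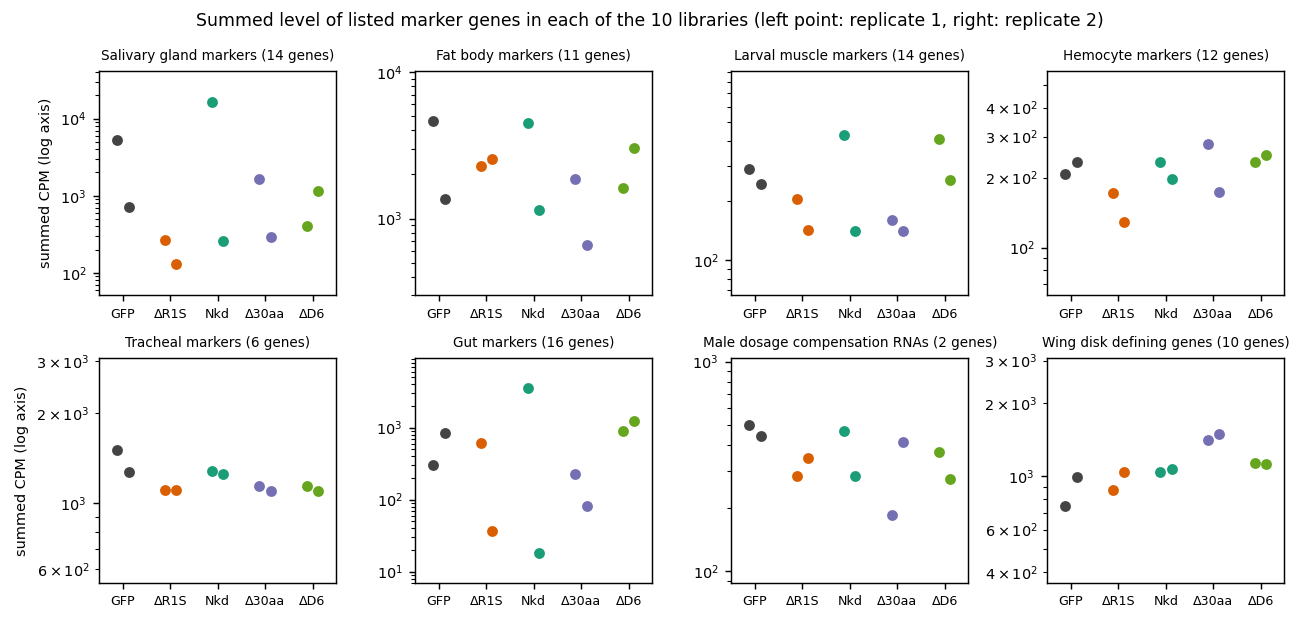
Each panel shows the summed CPM of a marker list on a log axis, with 2 points per group for the replicates. Salivary gland markers run from 130 CPM in NkdΔR1S replicate 2 to 16421 CPM in a Nkd library, and the tracheal sum runs from 1096 to 1512 CPM, with both GFP libraries above both NkdΔR1S libraries.

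The direct contrast with full-length Nkd shares no GFP library. The 2 groups differ in the R1S region, in the transgene line and in the nkd level. That level was 345 and 512 CPM in NkdΔR1S and 1141 and 1190 CPM in Nkd disks. These differences cannot be told apart in this contrast. edgeR called 12 genes higher in NkdΔR1S than in Nkd disks (0.13% of those tested) and 5 lower (0.054%). The lower genes were CG7900, Ir76a, CG32373 and CG43897, described above, and the glutathione S-transferase gene GstD9. GstD9 was at 67.4 and 68.9 CPM in Nkd and 18.2 and 15.9 CPM in NkdΔR1S disks (log2 -1.999, edgeR adjusted p = 0.00322), with 31.2 and 23.1 CPM in GFP disks. Among the higher genes, CG14715 was at 14.8 and 14.7 CPM in Nkd and 65.0 and 52.2 CPM in NkdΔR1S disks (log2 1.99, adjusted p = 0.000726), with 61.3 and 55.2 CPM in GFP disks. krimp, a Tudor domain gene of the piRNA pathway, was at 5.51 and 6.39 CPM in Nkd and 48.3 and 27.8 CPM in NkdΔR1S disks (log2 2.68, adjusted p = 0.0154), with 40.8 and 44.3 CPM in GFP disks. Between NkdΔR1S and GFP disks the adjusted p was 0.9754 for CG14715 and 0.759 for krimp, whose NkdΔR1S libraries differed widely. In the other deletion forms krimp was at 4.08 and 2.98 CPM (NkdΔ30aa) and 3.66 and 2.80 CPM (NkdΔD6), below both NkdΔR1S libraries (adjusted p = 0.00227 and 0.00367), and CG14715 was at 39.4 and 38.9 CPM and at 39.2 and 41.6 CPM there. CG32055 was at 0.794 and 0.829 CPM in Nkd disks (log2 4.04, adjusted p = 0.0140). The remaining higher genes were mthl8, SelG, pst, Acbp1, UQCR-6.4, CG6321, boca, GstD1 and CG3434, with log2 differences from 0.68 to 1.38. For the genes of the Wg pathway, the Hippo core and targets, the Notch pathway and the EGF receptor cascade the median log2 differences from Nkd were -0.11, -0.03, -0.09 and -0.05. This contrast also goes with exon length, with a rank correlation of -0.305 across genes, and in edgeR it gave 26 higher calls without NkdΔR1S replicate 2, 4 without NkdΔR1S replicate 1 and 1 without Nkd replicate 1 or Nkd replicate 2. Lower calls numbered 2 without Nkd replicate 1 or NkdΔR1S replicate 1.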

How the data were processed

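Wing disk RNA libraries were compared between NkdΔR1S and GFP (2 each), in a fit of all 10 libraries of 5 groups. Raw counts per gene and exon length in bases (another kind of column) were deposited by the authors, who, per the labels and methods, used HISAT2 2.2.1 for alignment to BDGP6 and featureCounts for counting. For featureCounts, version and strand setting were not given in the sources used here. Every library file was checked to hold the same values as the series table. Library totals of the 4 libraries ran from 18695697 to 20581154, so replicate spread rather than depth sets the precision, and counting intervals cover counting error only. Of 17807 gene IDs, 97 had no symbol (0.367% to 0.544% of a library's counts).

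In R 4.3.3, edgeR 4.0.16 was used with TMM factors, filterByExpr by group, the robust quasi-likelihood test and a prior count of 0.125. p-values were adjusted by Benjamini-Hochberg over all genes tested. Residual degrees of freedom were 5 and prior ones 3.41 (median). The 95% intervals of log2 fold changes use their SE with a t quantile. All 10 libraries were fitted together because 2 samples a group leave little to estimate the spread from. The methods name DESeq2, used here as an alternative (version 1.42.0) on 4 and on all 10 libraries. Which tool suits these data better was not tested. The code was tested on simulated data.

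The comparison and the 51 gene lists were chosen with earlier results of these data known, as were thresholds and named genes. Of list members, 919 matched a gene and 7 did not. Named genes are the called genes (the ABC transporter gene by its ID), genes the study lists for its pathways, wg, dsh, arm, yki and dpp, called list members or, in lists without a call, members with the lowest unadjusted p. Other genes are named because DESeq2 called them, for their known roles, or after their values were seen. Alternatives were RLE normalization, no filter, DESeq2, edgeR on 4 libraries, the replicate number as a block, offsets for exon length (lowess, span 0.3, prior count 2), marker removal, other thresholds and leaving out each replicate.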

Additional observations from a re-analysis of the deposited data

Results flagged for a closer look

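In 4 of the genes called lower in NkdΔR1S against GFP disks, the effect also differed from that of full-length Nkd by the direct contrast of the 2 groups. The log2 difference of NkdΔR1S minus Nkd was -5.38 for CG7900, -1.40 for CG32373, -1.46 for CG43897 and -1.21 for Ir76a, with edgeR adjusted p of 4.96e-05, 0.0169, 0.0209 and 0.0419. In each of them both NkdΔR1S libraries lay below both Nkd and both GFP libraries. CG7900 was the only one of the 4 that was also lower than each of the other 2 deletion forms in the direct contrasts by more than 4 on the log2 scale.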

How the results depend on the processing

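All 16 genes called in NkdΔR1S against GFP disks kept their direction in the 13 alternatives. The count of genes higher, 5, and lower, 11, became 294 and 84 with DESeq2 on all 10 libraries, 73 and 77 with DESeq2 on 4, 0 and 0 with edgeR on 4 (lowest adjusted p 0.0758), and 984 and 863 at an unadjusted p under 0.05. With 1 library left out they ranged from 0 to 5 higher and from 2 to 5 lower. The labels do not say that replicate numbers pair samples, and they were not treated as pairs: the correlation of same-numbered deviations was 0.235 for GFP and NkdΔR1S, 0.243 for GFP and Nkd and 0.374 for Nkd and NkdΔR1S, but down to -0.223 over all pairs of groups. With the replicate number as a block, edgeR called 3 higher and 8 lower, 11 of the 16 genes, and not NaPi-III, CG17734 and asRNA:CR45600 (adjusted p = 0.058 each), baz (0.092) or lncRNA:CR44042 (0.0978). The log2 fold change of nkd was 3.06 without the filter (adjusted p = 0.0905), 3.02 with edgeR on 4 libraries (adjusted p = 0.417) and from 2.61 to 3.62 with 1 library left out, and it lost its call in these. Against Nkd, the 12 higher and 5 lower genes became 33 and 14 without the filter, 176 and 80 with DESeq2 on 10 libraries, 101 and 31 on 4, 0 and 0 with edgeR on 4, 975 and 478 at an unadjusted p under 0.05, and from 1 to 26 and from 2 to 6 with 1 library left out. There, 10 genes were lower with length offsets, 6 were higher with the replicate block and length offsets, and 5 were higher at a fold over 2. The cause of these shifts was not tested. With 2 samples a group, a lone sample is assumed to vary like the other groups. Depth limits only the low genes, such as CG13032 and asRNA:CR45600.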

Other observations

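Other gene groups held differences that edgeR did not call, and the genes named here were picked after their values were seen. Of the single genes named, DESeq2 on the 4 libraries called Jon66Ci, PPO2, both rRNA pseudogenes and Pi3K92E, and apart from Drs the libraries of the 2 groups did not overlap in any of them. Since the genes were picked by their values, this is no support. Libraries did not overlap for 20.9% of all genes with NkdΔR1S higher and for 26.5% with NkdΔR1S lower. At an unadjusted p under 0.05, 10.6% of all genes tested lay higher and 9.32% lower. Of 17 antimicrobial peptide and peptidoglycan recognition genes, 2 were higher and 0 lower in NkdΔR1S disks at an unadjusted p under 0.05 and edgeR and DESeq2 called 0. The antifungal peptide gene Drs was at 3.00 and 3.61 CPM in GFP and 23.9 and 2.86 CPM in NkdΔR1S disks, so that 1 library carried the difference. Of 49 cuticle genes, 2 were higher and 11 lower unadjusted, edgeR called 0, and DESeq2 called 1 higher and 4 lower. The gut protease gene Jon66Ci was at 117 and 450 CPM in GFP and 8.02 and 16.2 CPM in NkdΔR1S disks (edgeR adjusted p = 0.203), in the same libraries in which the gut marker sum was 300 and 837 CPM, and 616 and 36.7 CPM, and the part of gut tissue in it was not tested. The prophenoloxidase gene PPO2 of crystal cells was at 29.0 and 43.5 CPM in GFP and 14.2 and 6.44 CPM in NkdΔR1S disks (edgeR adjusted p = 0.201). The rRNA pseudogene 28SrRNA-Psi:CR45860 was at 0.721 and 3.04 CPM in GFP and 124 and 21.9 CPM in NkdΔR1S disks (edgeR adjusted p = 0.197), and 28SrRNA-Psi:CR45851 at 2.55 and 6.08 against 32.3 and 22.8 CPM (adjusted p = 0.240). PCNA, the sliding clamp gene of replication, was at 519 and 484 CPM in GFP and 361 and 344 CPM in NkdΔR1S disks (edgeR adjusted p = 0.147). Pi3K92E, the catalytic subunit gene of phosphoinositide 3-kinase, was at 30.3 and 39.1 CPM in GFP and 58.1 and 71.0 CPM in NkdΔR1S disks (edgeR adjusted p = 0.149).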
